A study of Rattus norvegicus with 19 samples.

Results

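Alox15 and 9 other genes of eicosanoid synthesis (Alox5, Alox5ap, Alox12, Ptgs1, Ptgs2, Ptges, Ptgds, Ptgis and Tbxas1) were followed across 7 groups of rat hearts. The genes were chosen by symbol, and the list was built around Alox15 because an earlier look at these libraries had found it higher in hearts treated with empagliflozin (EMPA) than in untreated hearts. That contrast is therefore described with no test. All 10 symbols were among the 17455 in the count files. The filter on low counts kept 12388 genes, 9 of these 10 among them; Ptges did not pass it.

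Eicosanoids are signalling lipids made from arachidonic acid and related fatty acids. Lipoxygenases (Alox5 with its helper Alox5ap, Alox12, Alox15) start the branches that lead to leukotrienes, hydroxy fatty acids and lipoxins, while the cyclooxygenases Ptgs1 and Ptgs2 make prostaglandin H, which Ptges, Ptgds, Ptgis and Tbxas1 turn into prostaglandin E, prostaglandin D, prostacyclin and thromboxane. Alox15 is known from maturing red blood cells, where it takes part in the loss of mitochondria, and from eosinophils and macrophages exposed to type 2 cytokines; in the heart, prostacyclin and thromboxane are known for opposite effects on vessel tone.

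The libraries were made from total RNA of left ventricles (tissue label: heart) of Sprague-Dawley rats that were 24 weeks old at the start and carried the sex label male. HFpEF, heart failure with preserved ejection fraction, was induced for 5 weeks with the nitric oxide synthase inhibitor L-NAME, 0.5 g/L in drinking water, plus a high-fat diet in which lard gave 60% of the energy. Hearts taken at week 5 formed the groups control 5w (normal chow, no L-NAME, 3 libraries) and HFpEF (3 libraries). Hearts taken at week 9 formed the groups control 9w (normal chow, no L-NAME, 3 libraries) and 4 groups of HFpEF rats gavaged for 4 weeks: untreated (phosphate-buffered saline alone, 3 libraries), EMPA (0.35 g/kg per day, 2 libraries), PFD (pirfenidone, an antifibrotic drug, 0.3 g/kg per day, 2 libraries) and EMPA + PFD (both drugs at those doses, 3 libraries). Total counts per library ran from 7430539 to 13017754, with a median of 9951011.

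The heart label held in every library: the cardiomyocyte markers (10 of 10 in the files, Myh6 the most abundant) summed to 15030 to 99970 CPM (counts scaled to library size by the trimmed mean of M values, TMM), and none of them was at 0. The sex label was not borne out in 7 libraries. Y-linked Eif2s3y had 0 counts in HFpEF replicates 1 and 3, in the 3 untreated libraries and in both PFD libraries, against 613 to 1321 counts elsewhere. RT1-CE16, a class I gene of the rat major histocompatibility complex, which differs between rat haplotypes, had 0 to 3 counts in 8 libraries (all of EMPA, HFpEF and control 5w) and 308 to 922 counts in the other 11 (all of control 9w, untreated, PFD and EMPA + PFD). The atrial light chain Myl4 stood at 1597 CPM in untreated replicate 2, 1381 CPM in control 9w replicate 3 and 305 CPM in control 9w replicate 1, against 2.95 to 33.8 CPM in the other 16 libraries. Comparisons between control 9w and control 5w, untreated and HFpEF, and EMPA and untreated cross the RT1-CE16 split, so in them the named condition and that difference between the libraries cannot be told apart. Untreated against control 9w, EMPA against untreated and EMPA + PFD against untreated likewise cross the split in Eif2s3y, with no counts of it in any untreated library and counts in every library of the other group, so disease or drug and this difference cannot be told apart there. In HFpEF against control 5w, HFpEF replicates 1 and 3 had no counts of Eif2s3y, while control 5w had 1204 to 1321. Disease at week 5 and this difference are therefore not fully separate. The part of sex, haplotype and atrial RNA in the results was not tested.

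Alox15 ranged from 2 to 561 counts per library. In control 5w it had 561, 189 and 260 counts (52.9, 14.7 and 20.7 CPM). In HFpEF it had 127, 57 and 210 counts (9.11, 5.23 and 18.8 CPM). At week 5 Alox15 was thus well covered in every heart, diseased or not. Control 9w had 17, 17 and 27 counts (1.92, 2.09 and 2.69 CPM). The untreated libraries had 2, 7 and 5 counts (0.211, 0.568 and 0.527 CPM). Both week 9 groups without drug lay under every week 5 library. EMPA had 365 and 68 counts (48.6 and 8.26 CPM). PFD had 29 and 25 counts (3.18 and 2.57 CPM), and EMPA + PFD had 3, 27 and 8 counts (0.355, 3.23 and 0.836 CPM). The EMPA libraries lay within the range of the week 5 hearts, and the PFD and EMPA + PFD libraries overlapped control 9w or untreated.

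**Figure D1:**
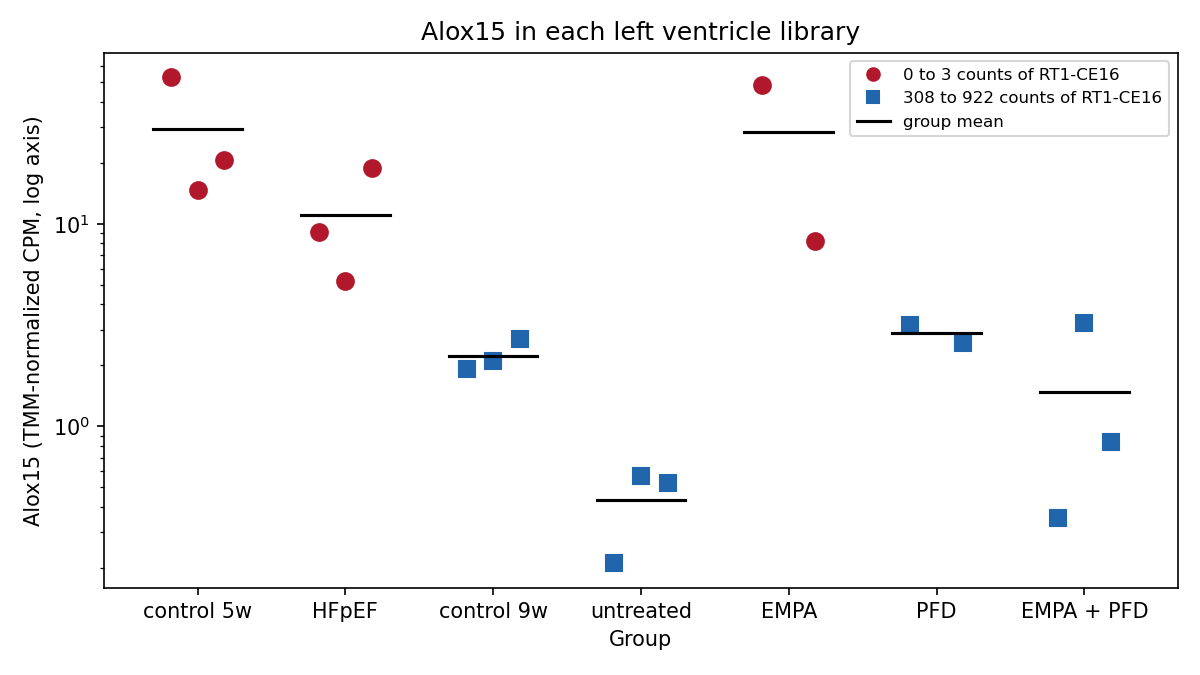
Alox15 in each of the 19 libraries (TMM-normalized CPM, log axis) by group, with a line at the group mean; red circles had 0 to 3 counts of RT1-CE16 and blue squares 308 to 922. The red points lie at 5.23 to 52.9 CPM and the blue points at 0.211 to 3.23 CPM.

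Ordered by mean CPM, Alox15 stood at 29.4 ± 20.5 in control 5w (SD, n = 3), 28.4 ± 28.5 in EMPA (n = 2), 11.03 ± 6.97 in HFpEF (n = 3), 2.87 ± 0.428 in PFD (n = 2), 2.23 ± 0.407 in control 9w (n = 3), 1.47 ± 1.54 in EMPA + PFD (n = 3) and 0.435 ± 0.195 in untreated (n = 3). Neighbours in this order overlapped, with the exception of HFpEF and PFD. That gap is the RT1-CE16 split: Alox15 was at 57 to 561 counts in the 8 libraries nearly without RT1-CE16 and at 2 to 29 counts in the 11 with it. Alox15 was the only 1 of the 9 tested genes without overlap across the split. Of all 12388 genes 22 (0.178%) had none, 12 of them higher in the 8 libraries. The EMPA and untreated libraries, which entered the choice of Alox15, are on opposite sides, so this separation is a description.

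A gene was called when edgeR's quasi-likelihood F test gave a Benjamini-Hochberg adjusted p under 0.05 over all 12388 genes and the absolute log2 fold change was at least 1. Disease at week 5 (HFpEF against control 5w) called 0 of the 9 genes by edgeR, with 0 at an unadjusted p under 0.05 and 0 by DESeq2, against 8.69% of all genes. Disease at week 9 (untreated against control 9w) called 0 of 9 by edgeR, with 3 at an unadjusted p under 0.05 and 1 by DESeq2 (Ptgds), against 0.912% of all genes. The harvests of healthy hearts (control 9w against control 5w) called 2 of 9, Alox15 and Tbxas1, both lower at week 9, with 4 at an unadjusted p under 0.05 and 3 by DESeq2 (also Ptgs1, higher at week 9), against 14.7% of all genes. The harvests of diseased hearts (untreated against HFpEF) called 0 of 9 by edgeR, with 5 at an unadjusted p under 0.05 and 2 by DESeq2, against 0.194% of all genes. PFD against untreated called 0 of 9 by edgeR, with 1 at an unadjusted p under 0.05 and 0 by DESeq2, against 0.00807% of all genes. EMPA + PFD against untreated called 0 of 9 by edgeR, with 3 at an unadjusted p under 0.05 and 1 by DESeq2 (Ptgds), against 3.82% of all genes. The difference between the disease effects, week 9 minus week 5, called 0 of 9 by edgeR, with 1 at an unadjusted p under 0.05 and 1 by DESeq2 (Ptgs1), against 12% of all genes. EMPA against untreated, the contrast behind the choice, called 0.0404% of all genes, and no test of the 9 is given there. The counts against untreated include Alox15, for which they are no test.

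The median log2 difference of the 9 genes was 0.18 in HFpEF against control 5w (0.02 over all genes), 0.29 in untreated against control 9w (0.01 over all genes) and −0.74 in control 9w against control 5w (−0.04 over all genes). It was −0.62 in untreated against HFpEF (−0.01 over all genes). Against the untreated libraries, which these comparisons share, it was −0.64 for PFD (−0.02 over all genes) and −0.66 for EMPA + PFD (−0.03 over all genes). For the difference of disease effects it was −0.13 (−0.02 over all genes).

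Healthy hearts differed in Alox15 between the harvests. From control 5w to control 9w Alox15 fell by 3.70 on the log2 scale (SE 0.76, n = 3 and 3, adjusted p = 0.00255; DESeq2 adjusted p = 6.42e-06), a 13.0-fold difference, and the highest control 9w library, at 27 counts, lay under the lowest control 5w library, at 189. Of the 9 genes 4 had no overlap in this comparison, beside 49.4% of all tested genes. The call of Alox15 held without any 1 library, with log2 changes from −4.03 to −2.96. It was lost in the 16 libraries with Myl4 under 100 CPM, an alternative chosen after seeing the data, where control 9w keeps only replicate 2 (log2 change −3.80, adjusted p = 0.0619). Since these are whole-tissue libraries, fewer cells that carry a transcript and less of it per cell cannot be told apart, here and for every gene below.

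Disease at week 5 left Alox15 between 57 and 561 counts in all 6 libraries. HFpEF replicate 3 (210 counts) lay above control 5w replicate 2 (189 counts), so the groups overlapped. The log2 difference of HFpEF from control 5w was −1.41 (SE 0.66, n = 3 and 3, adjusted p = 0.141) and did not pass the test. Its range over the alternatives was −2.49 to −0.68.

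Differences of Alox15 from the untreated libraries are given as values, since those libraries helped to choose it. The log2 difference of untreated was −2.31 from control 9w and −4.60 from HFpEF. Relative to untreated it was 2.66 in PFD, 1.69 in EMPA + PFD and 5.96 in EMPA. Untreated hearts were the low end in each of them, with 2 to 7 counts, close to the 3 counts taken as the floor of detection. Without EMPA replicate 1 (365 counts) the EMPA value was 4.18, and without EMPA + PFD replicate 2 (27 counts) the EMPA + PFD value was 0.45. EMPA replicate 2 had 68 counts, above every library of control 9w, untreated, PFD and EMPA + PFD. The log2 difference between the disease effects, week 9 minus week 5, was −0.89, with a range over the alternatives of −1.63 to 0.19 that includes a change of sign.

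Alox15 is a gene of late red cell precursors, and erythroid markers were followed beside it. Of 8 listed erythroid markers 6 were in the files and 5 passed the filter; Hbb, the beta globin, was the most abundant, and Hba-a2 had 0 to 2 counts. Their summed CPM was 1733, 1043 and 1639 in control 5w, and 1799, 1435 and 3969 in HFpEF. It was 1535, 1833 and 1181 in control 9w and 233.5, 185.5 and 306.2 in untreated. It was 2310 and 446.2 in EMPA, 711.8 and 858.3 in PFD, and 143.4, 480.8 and 213.3 in EMPA + PFD. Erythroid RNA was thus high in both control groups and in HFpEF, and low in the untreated and EMPA + PFD libraries.

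**Figure D2:**
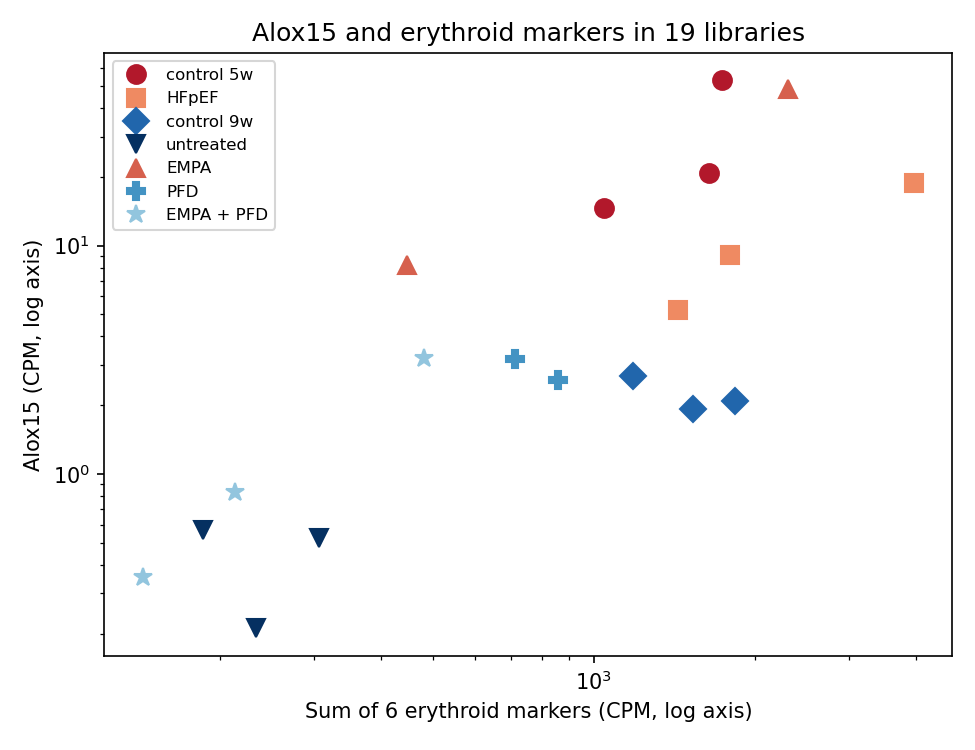
Alox15 (CPM, log axis) against the summed CPM of 6 erythroid markers (log axis) in the 19 libraries, with a symbol for each group. Untreated and EMPA + PFD replicates 1 and 3 lie at the lower left, and control 9w has erythroid sums of 1181 to 1833 CPM at 1.92 to 2.69 CPM of Alox15.

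Alox15 and the erythroid markers went the same way in some comparisons and apart in others. Across the harvests of healthy hearts, where Alox15 fell by 3.70 on the log2 scale, 0 of the 5 tested erythroid markers were called by edgeR, with 1 at an unadjusted p under 0.05 and 1 by DESeq2. Of all genes 14.7% were called by edgeR there. The log2 difference of Hbb was 0.01, that of Alas2, which makes the haem precursor of red cells, 0.05, that of Hba-a1 1.17 and that of Hbb-b1 1.04. Slc4a1, the red cell anion exchanger and the DESeq2 call, was lower in all 3 control 9w libraries (log2 difference −1.57, adjusted p = 0.051; DESeq2 adjusted p = 0.0248), so the markers went both ways. There 49.4% of all tested genes had no overlap. At week 9 disease called 2 of 5 erythroid markers, both lower in untreated than in control 9w: Hbb (log2 change −2.65, adjusted p = 0.0363) and Alas2 (log2 change −2.93, adjusted p = 0.0318). All 5 were lower there, with 5 at an unadjusted p under 0.05 and 5 by DESeq2, against 0.912% of all genes called by edgeR. From HFpEF to untreated 4 of 5 fell, beside 0.194% of all genes called. The exception was Hbb-b1 (log2 difference −3.08, adjusted p = 0.0576). In HFpEF against control 5w 1 of 5 rose, beside 8.69% of all genes called. It was the alpha globin Hba-a1 (log2 change 2.69, adjusted p = 0.0117), at lower mean CPM of Alox15 in HFpEF. In EMPA against untreated all 5 had higher values, which are given with no test. In EMPA + PFD against untreated 1 of 5 rose, Slc4a1 (log2 change 3.74, adjusted p = 0.00893), beside 3.82% of all genes called. PFD against untreated called 0 of 5 by edgeR, with 4 at an unadjusted p under 0.05 and 0 by DESeq2, beside 0.00807% of all genes. The part of erythroid cells in the Alox15 differences was not tested beyond these values.

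Alox15 was also read relative to the erythroid sum, with no test. Per 1000 CPM of erythroid markers, a ratio read only across libraries, it was 30.5, 14.1 and 12.6 in control 5w, 21.0 and 18.5 in EMPA and 5.07, 3.64 and 4.73 in HFpEF. It was 1.25, 1.14 and 2.28 in control 9w, 0.904, 3.06 and 1.72 in untreated, 4.46 and 3.00 in PFD, and 2.47, 6.71 and 3.92 in EMPA + PFD. Control 5w and EMPA had the high ratios, apart from all other groups, and the ratio of untreated overlapped that of control 9w. Over the 19 libraries, which share their depth scaling, log2 Alox15 and the log2 erythroid sum had Pearson's r = 0.799 and Spearman's rho = 0.73. The r was 0.44 within the 8 libraries nearly without RT1-CE16 and 0.786 within the 11 others. The 8 hold the EMPA and the 11 the untreated libraries, which entered the choice of Alox15, so these r values are descriptions.

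The 3 genes whose log2 CPM was most like Alox15 over the 19 libraries were Rhd (Pearson's r = 0.849, Spearman's rho = 0.8), Hemgn (r = 0.838, rho = 0.84) and Kel (r = 0.834, rho = 0.777). Rhd and Kel encode blood group antigens of red cells and Hemgn a nuclear protein of blood cell precursors; none of the 3 was on the erythroid list. Within the 8 libraries their r was 0.737, 0.679 and 0.715, and within the 11 it was 0.833, 0.722 and 0.775. The 8 hold the EMPA and the 11 the untreated libraries, which entered the choice of Alox15, so this likeness is a description. In EMPA against untreated the log2 differences of Rhd, Hemgn and Kel were 5.12, 3.50 and 3.33, given with no test. From control 5w to control 9w the log2 differences of Rhd, Hemgn and Kel were −0.20, −0.14 and −0.38, with adjusted p from 0.724 to 0.881, beside −3.70 for Alox15.

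Of the eosinophil genes, Epx, Prg3 and Il5ra reached at most 10, 1 and 1 counts in any library, Prg2 12, Ccr3 16 and Siglec5 358, and of the 8 listed eosinophil markers 2 passed the filter, Prg2 and Siglec5. Their summed CPM was 5.59 to 28.4, highest in HFpEF replicate 1 and untreated replicate 2. Siglec5 made up most of the sum. Of these 2, 1 rose in control 9w against control 5w, beside 14.7% of all genes called. In HFpEF against control 5w 1 rose, beside 8.69%. The gene that rose was Prg2 both times, which had no more than 12 counts in any library. In EMPA + PFD against untreated 1 fell, beside 3.82% of all genes called, and 1 fell in the difference of disease effects, beside 12%.

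The 5-lipoxygenase pair is made by white blood cells. Alox5, which makes the leukotriene precursor, ranged from 41 to 279 counts. In control 5w it had 188, 203 and 185 counts and in control 9w 85, 85 and 89 counts. The control 9w libraries lay under all control 5w libraries, beside 49.4% of all tested genes without overlap. The log2 difference of Alox5, −0.74 (SE 0.29, adjusted p = 0.0603), did not pass the test. In EMPA + PFD against untreated its log2 difference was −0.66 (adjusted p = 0.129). Alox5ap, the membrane protein that presents arachidonic acid to Alox5, ranged from 35 to 407 counts, highest in HFpEF replicate 1 and lowest in control 9w replicate 2. Its log2 difference of untreated from HFpEF was −1.02 (adjusted p = 0.182), and 0.12 when HFpEF replicate 2, the HFpEF library with Eif2s3y, stood alone for HFpEF. Alox12, the platelet-type lipoxygenase, had 18 to 108 counts and log2 differences from −0.88 (PFD against untreated) to 0.29 (untreated against control 9w), with no adjusted p under 0.195. Alox12 is also listed as an older name of Alox15 in RefSeq; the count files hold both symbols as separate genes.

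The genes most like Alox5 were C1r (r = 0.865), Ltc4s (r = 0.864), which makes leukotriene C, and Pik3cg (r = 0.861). Those most like Alox5ap were C1qc (r = 0.947), Clec10a (r = 0.947) and Pde3b (r = 0.944). For Alox12 they were Smim1 (r = 0.793), Capn5 (r = 0.791) and Myo1g (r = 0.786). C1qc and Clec10a are genes of macrophages. These r values span the 19 libraries; within the 8 and the 11 libraries they were 0.741 to 0.969 for the genes named with Alox5 and Alox5ap, and 0.172 to 0.895 for those named with Alox12.

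**Figure D3:**
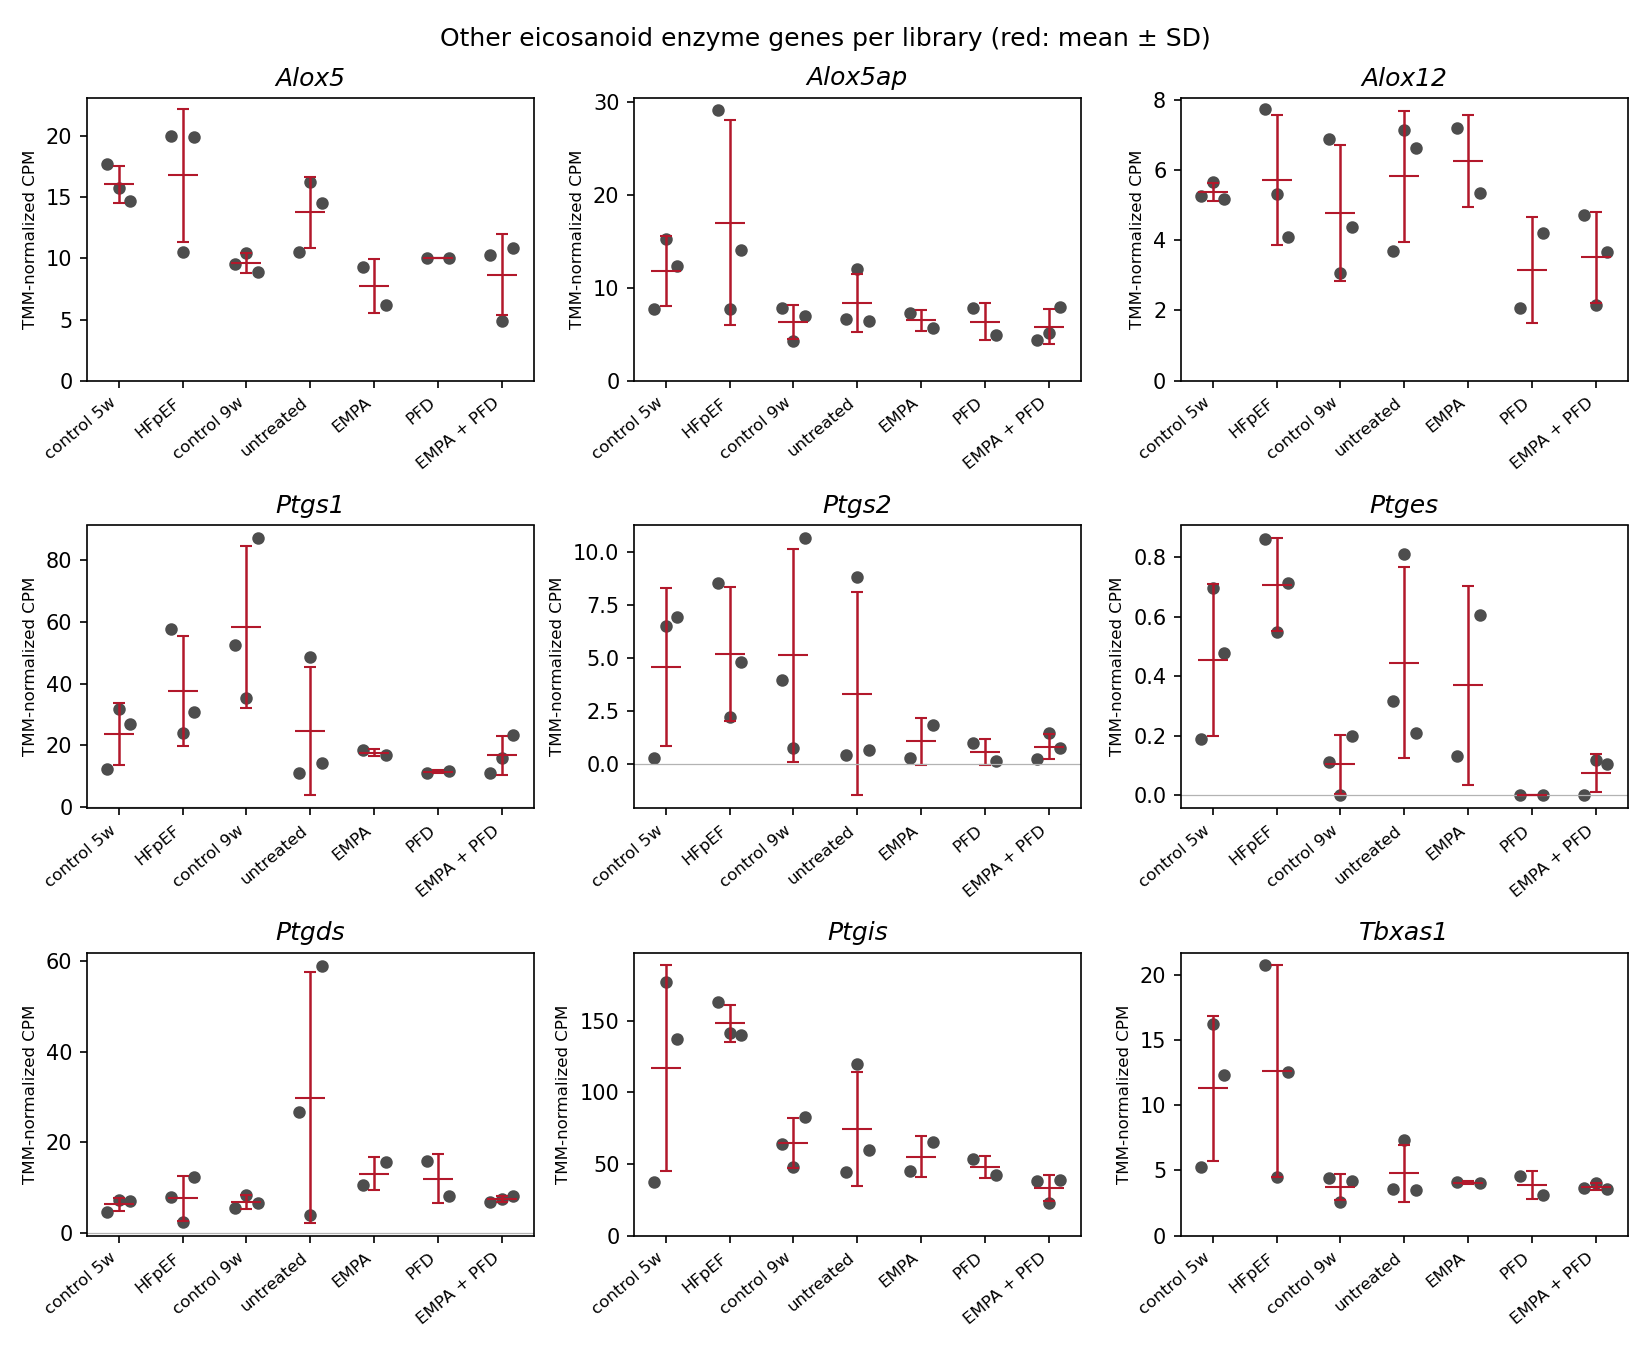
CPM (TMM-normalized) of the other 9 genes in each library by group, with group mean and SD in red (n = 3, or 2 for EMPA and PFD; an SD bar can reach under 0). Tbxas1 lies at 2.58 to 4.40 CPM in control 9w against 5.28 to 16.2 CPM in control 5w, and Ptgds reaches 58.9 CPM in untreated.

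The cyclooxygenases varied between libraries of the same group. Ptgs1, the form present in most tissues, had 131, 408 and 338 counts in control 5w, 804, 261 and 347 in HFpEF, 466, 288 and 874 in control 9w and 104, 600 and 137 in untreated. EMPA had 139 and 139 counts, PFD 102 and 115, and EMPA + PFD 93, 133 and 224. Control 9w lay above control 5w in CPM in all 3 libraries, beside 49.4% of all tested genes without overlap. Untreated replicate 2 stood far above untreated replicates 1 and 3. The log2 difference of control 9w from control 5w was 1.30 (SE 0.53, adjusted p = 0.067; DESeq2 adjusted p = 0.0348), and the adjusted p was 0.0216 without untreated replicate 2. It was 0.90 without control 9w replicate 3 (adjusted p = 0.235) and 0.58 in the 16 libraries with Myl4 under 100 CPM (adjusted p = 0.441). That of untreated from control 9w was −1.23 (SE 0.53, adjusted p = 0.228), and without untreated replicate 2 it was −2.20 (adjusted p = 0.02). Without control 9w replicate 3 it was −0.82 (adjusted p = 0.453). The disease effects, week 9 minus week 5, differed by −1.90 on the log2 scale (SE 0.74, adjusted p = 0.081; DESeq2 adjusted p = 0.0411), and by −2.87 without untreated replicate 2 (adjusted p = 0.00472).

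Ptgs2, the inducible cyclooxygenase, had 1 to 119 counts. It was high in HFpEF replicate 1 (119 counts), untreated replicate 2 (109) and control 9w replicate 3 (107), and low in control 5w replicate 1 (3 counts), whose group mates had 84 and 87. Its log2 differences ran from −2.63 (PFD against untreated) to 0.18 (HFpEF against control 5w), with no adjusted p under 0.282. The value of −2.63 ran from −4.89 to 0.02 over the alternatives, changing sign under 2 of them. Ptgs1 and Ptgs2 moved together over the 19 libraries (r = 0.829, rho = 0.812; 0.841 within the 8 and 0.866 within the 11 libraries).

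Among the untreated and control 9w libraries the 6 atrial and conduction markers were high where both cyclooxygenases were. Nppa was the most abundant, and their summed CPM was 14880 in untreated replicate 2 against 51.2 and 493.3 in the other untreated libraries. It was 23340 and 5199 in control 9w replicates 3 and 1 against 188.2 in replicate 2. Elsewhere they parted: HFpEF replicate 1, with 119 counts of Ptgs2, had a sum of 2090, under control 5w replicate 1 (3332, with 3 counts of Ptgs2) and EMPA replicate 2 (5185, with 15). Of these 6 markers 2 rose and 1 fell in control 9w against control 5w, beside 14.7% of all genes called. In untreated against control 9w 0 of 6 were called by edgeR, with 1 at an unadjusted p under 0.05 and 1 by DESeq2. The genes most like Ptgs1 were Cemip2 (r = 0.917), Cyp2t1 (r = 0.911) and Agpat4 (r = 0.906), and those most like Ptgs2 were Aig1 (r = 0.925), Klhl29 (r = 0.916) and Tmem100 (r = 0.899), with r of 0.733 to 0.97 within the 8 and the 11 libraries. The part of atrial tissue in the cyclooxygenase differences was not tested.

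The promoters of Ptgs1 and Ptgs2 are shown because these genes moved together across libraries (RefSeq sequences, build GRCr8, 250 bases before to 50 bases after the gene start; entries were found for 7 of the 10 genes, not for Alox15, Alox5ap and Ptgis). Both are given 5′ to 3′ on the plus strand, Ptgs1 at chr3:39981169-39981468 and Ptgs2 at chr13:64713813-64714112, with motif matches in capitals. The motifs searched on both strands, none overlapping another, were the E-box CACGTG, found in 6.42% of all 33469 promoters, the TATA box TATAAA (14.2%), the GC box GGGCGG (33.1%) and the short site of the cAMP response element TGACG (21.2%). Ptgs2 held CACGTG from 55 bases before the gene start and GGGCGG from 238 bases before it, and the Ptgs1 window held none of these letters.
Ptgs1: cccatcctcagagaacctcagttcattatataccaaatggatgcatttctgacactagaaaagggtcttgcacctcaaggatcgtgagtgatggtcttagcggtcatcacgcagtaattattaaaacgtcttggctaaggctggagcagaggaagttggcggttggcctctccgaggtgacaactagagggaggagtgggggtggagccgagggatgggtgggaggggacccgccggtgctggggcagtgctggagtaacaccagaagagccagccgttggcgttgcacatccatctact
Ptgs2: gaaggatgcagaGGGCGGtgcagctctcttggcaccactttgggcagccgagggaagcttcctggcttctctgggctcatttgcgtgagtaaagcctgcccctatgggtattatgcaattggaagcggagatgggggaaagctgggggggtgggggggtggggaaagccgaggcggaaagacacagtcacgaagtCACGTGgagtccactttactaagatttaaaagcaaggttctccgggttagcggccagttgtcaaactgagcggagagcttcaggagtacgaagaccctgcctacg

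Tbxas1, thromboxane synthase, was the other gene that passed the test. It had 56, 209 and 155 counts in control 5w (5.28, 16.2 and 12.3 CPM) and 39, 21 and 42 counts in control 9w (4.40, 2.58 and 4.19 CPM). Every control 9w library lay under every control 5w library, with control 5w replicate 1 the nearest. In this comparison 49.4% of all tested genes had no overlap. Tbxas1 fell by 1.59 on the log2 scale (SE 0.50, n = 3 and 3, adjusted p = 0.0229; DESeq2 adjusted p = 0.00722). The call was lost without control 5w replicate 2 (log2 change −1.24, adjusted p = 0.0991), without control 5w replicate 3 (−1.53, adjusted p = 0.0582), without control 9w replicate 2 (−1.39, adjusted p = 0.0944) and in the 16 libraries with Myl4 under 100 CPM (−2.12, adjusted p = 0.0726). Across the alternatives its log2 change stayed between −2.12 and −1.24. In RefSeq (build GRCr8) Tbxas1 overlaps Parp12, which is also in the count files. The strand setting of the counts is not given, and the part of this overlap was not tested.

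In diseased hearts Tbxas1 had 289, 49 and 140 counts at week 5 (HFpEF) and 34, 90 and 33 counts at week 9 (untreated). The groups overlapped, since HFpEF replicate 2 lay under untreated replicate 2, and the log2 difference was −1.39 (SE 0.48, adjusted p = 0.134). With HFpEF replicate 2 alone for HFpEF it was 0.10. Without that library it was −1.78 (adjusted p = 0.0416), and without untreated replicate 2 it was −1.83 (adjusted p = 0.0416). The drug groups held 30 to 42 counts, close to control 9w.

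Macrophage markers moved with Tbxas1 and Alox5ap. The 10 markers (Csf1r the most abundant, none at 0 in any library) summed to 549, 951 and 825 CPM in control 5w, to 1838, 533 and 1172 in HFpEF and to 373, 280 and 484 in control 9w. They summed to 323, 744 and 368 CPM in untreated, 363 and 241 in EMPA, 449 and 329 in PFD and 245, 275 and 465 in EMPA + PFD. The libraries high in Tbxas1, HFpEF replicate 1 and control 5w replicate 2, were high in this sum too. In control 9w against control 5w 5 of the 10 macrophage markers fell and 1 rose, beside 14.7% of all genes called. In untreated against HFpEF 0 of 10 were called by edgeR, with 9 at an unadjusted p under 0.05 and 6 by DESeq2. Tbxas1 and Alox5ap had r = 0.936 with each other over the 19 libraries (0.952 within the 8 and 0.828 within the 11), and the genes most like Tbxas1 were Ctss (r = 0.967), RGD1311946 (r = 0.957) and the lysozyme gene Lyz2 (r = 0.954). The part of macrophages in these differences was not tested.

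Ptgis, prostacyclin synthase, had 394, 2281 and 1721 counts in control 5w, 2274, 1544 and 1569 in HFpEF, 569, 389 and 830 in control 9w and 424, 1476 and 565 in untreated. EMPA had 337 and 538 counts, PFD 486 and 413, and EMPA + PFD 320, 189 and 375. Control 5w replicate 1 stood apart from its group, near the week 9 libraries. The log2 difference of Ptgis was −0.85 in control 9w against control 5w (adjusted p = 0.155; −1.29 to −0.42 over the alternatives, and called without control 5w replicate 1), −0.99 in untreated against HFpEF (adjusted p = 0.209) and −1.17 in EMPA + PFD against untreated (SE 0.46, adjusted p = 0.0964). In the last of these all 3 EMPA + PFD libraries lay under all untreated ones in CPM. In that comparison 37.4% of all tested genes had no overlap. Without control 5w replicate 1 the value of −1.17 was −1.16 (adjusted p = 0.033). It was −0.65 without untreated replicate 2 (adjusted p = 0.45) and −0.65 in the 16 libraries with Myl4 under 100 CPM (adjusted p = 0.487). Without untreated replicate 2 the value against HFpEF was −1.51 (adjusted p = 0.0489). The 7 fibroblast markers summed to 3836 CPM in control 5w replicate 1 and to 17250 and 14370 in replicates 2 and 3. Of these 7 markers 5 fell in control 9w against control 5w, beside 14.7% of all genes called. Camkk1, Anxa1 and Evc were most like Ptgis (r = 0.963 for each; 0.941 to 0.991 within the 8 and the 11 libraries).

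Ptgds, which makes prostaglandin D, had 49, 94 and 88 counts in control 5w, 112, 27 and 138 in HFpEF and 48, 68 and 67 in control 9w. Untreated had 253, 49 and 559 counts, EMPA 79 and 129, PFD 144 and 79, and EMPA + PFD 57, 63 and 78. Untreated replicates 1 and 3 were the highest of all 19 libraries, while untreated replicate 2, at 3.98 CPM, lay under every control library, so no comparison with untreated was free of overlap. Its log2 difference of untreated was 2.13 from control 9w (SE 0.68, adjusted p = 0.112; DESeq2 adjusted p = 0.0253) and 1.96 from HFpEF (SE 0.67, adjusted p = 0.127; DESeq2 adjusted p = 0.0387). The difference of EMPA + PFD from untreated was −1.99 (SE 0.68, adjusted p = 0.0652; DESeq2 adjusted p = 0.0199). Without untreated replicate 2 these 3 values passed the test: 2.65 (adjusted p = 0.0105), 2.49 (adjusted p = 0.0121) and −2.51 (adjusted p = 0.0339). Without untreated replicate 3 they were 1.16 (adjusted p = 0.436), 1.00 (adjusted p = 0.458) and −1.01 (adjusted p = 0.286), so their size rested on that library. The last of the 3 also passed without HFpEF replicate 2 (adjusted p = 0.0487). Among the genes most like Ptgds were Wdr70 (r = 0.773) and Gadd45a (r = 0.718), at 0.7 to 0.924 within the 8 and the 11 libraries. Ptges, an inducible prostaglandin E synthase, had 0 to 12 counts and was at 0 in control 9w replicate 2, both PFD libraries and EMPA + PFD replicate 1; it did not pass the filter.

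Around these 10 genes, a list of 83 other eicosanoid genes was followed, 77 of them in the files and 60 tested. In HFpEF against control 5w 9 of 60 rose and 4 fell (median log2 difference 0.33, against 0.02 over all genes). Marker lists moved in the same comparison: 4 of 6 T lymphocyte, 3 of 4 platelet, 3 of 6 Schwann, 3 of 5 mesothelial 2 of 8 endothelial, 1 of 9 mast cell, 1 of 10 macrophage, 1 of 2 eosinophil and 1 of 5 erythroid markers rose, and 2 of 10 cardiomyocyte and 1 of 6 atrial markers fell; their part in the result was not tested. The arachidonic acid epoxygenases Cyp2j3 (log2 change 1.46, adjusted p = 0.00107) and Cyp2j4 (1.34, adjusted p = 0.00497) rose, each higher in 3 of 3 HFpEF libraries. The phospholipase genes Plb1 (−1.30, adjusted p = 0.00479) and Pla2g5 (−1.24, adjusted p = 0.0133) and the glutathione transferase gene Mgst3 (−1.85, adjusted p = 0.00826) fell, each lower in 3 of 3. Of the 12 tested genes of fatty acid release 2 rose and 2 fell, and of the 11 epoxygenases and hydroxylases 3 rose and 0 fell. Of the 7 leukotriene genes 3 rose and 1 fell, and of the 8 prostanoid receptors 1 rose and 1 fell. Calls were 0 of 6 in prostanoid synthesis and 0 of 7 in breakdown and transport. They were 0 of 3 in lipoxygenases and hydroperoxides and 0 of 6 in leukotriene and lipoxin receptors. The count of 13 was 5 without control 5w replicate 2 or replicate 3 and 7 without HFpEF replicate 2 or with only the groups compared. Cyp2j4 lost its call without HFpEF replicate 2 (0.96), Pla2g5 without control 5w replicate 1 (−0.92, adjusted p = 0.0552), and Mgst3 with HFpEF replicate 2 as the HFpEF library (−1.90, adjusted p = 0.0779), as did Pla2g5 (−1.15, adjusted p = 0.0949). With only the groups compared, Cyp2j4 (adjusted p = 0.0681) and Pla2g5 (adjusted p = 0.079) also missed the threshold.

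In control 9w against control 5w 15 of 60 rose and 8 fell (median 0.15, against −0.04 over all genes). That is 38.3% of the list beside 14.7% of all genes, as the 13 called in HFpEF against control 5w were 21.7% beside 8.69%. Of the 7 tested leukotriene genes 3 rose and 1 fell from control 5w to control 9w. Dpep1, a dipeptidase that cleaves leukotriene D, had 75, 99 and 75 counts in control 5w and 404, 322 and 264 in control 9w. It rose by 2.42 on the log2 scale (SE 0.39, adjusted p = 0.000607). Mgst2, which can make leukotriene C, had 36, 35 and 38 counts in control 5w and 106, 131 and 62 in control 9w, a rise of 1.90 (SE 0.33, adjusted p = 0.000929). All control 9w libraries lay above all control 5w libraries for both genes, but 49.4% of all tested genes had no overlap in this comparison, beside 37.7% in HFpEF against control 5w. Cyp4b1, a fatty acid hydroxylase (log2 change 2.27, adjusted p = 0.000607), the epoxide hydrolase Ephx1 (1.29, adjusted p = 0.000705) and the prostaglandin E receptor Ptger1 (1.27, adjusted p = 0.00193) rose as well, each higher in 3 of 3. These 5 calls held without any 1 library and in the 16 libraries with Myl4 under 100 CPM. In the same comparison 6 of 8 endothelial markers rose (median 1.15) and 3 of 4 tested platelet markers rose (median 2.67). Of 10 macrophage markers 5 fell and 1 rose, and of 6 atrial markers 2 rose and 1 fell. Beside them 5 of 7 fibroblast, 1 of 10 cardiomyocyte and 1 of 6 T lymphocyte markers fell. Of the others 1 of 5 mesothelial, 1 of 7 smooth muscle and 1 of 2 eosinophil markers rose. The part of these cells in the result was not tested.

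In untreated against control 9w 3 of 60 fell and 0 rose (median log2 difference 0.01, the same as over all genes). That is 5% of the list beside 0.912% of all genes. In the same comparison 2 of 5 erythroid markers fell (median −2.59) and 1 of 6 T lymphocyte markers rose (median 1.11). The part of these cells in the result was not tested. The fatty acid hydroxylase Cyp4f6 fell by 1.07 on the log2 scale (adjusted p = 0.0206), Dpep1 by 1.74 (adjusted p = 0.0318) and Mgst2 by 1.34 (adjusted p = 0.0485), each lower in 3 of 3 untreated libraries; 23% of all tested genes had no overlap here. Dpep1 had 163, 93 and 82 counts in untreated and Mgst2 45, 64 and 33. Both genes thus stood high in control 9w and lower in untreated. All 3 calls were lost without control 9w replicate 1 or 2 or untreated replicate 1 or 3, with adjusted p from 0.0612 to 0.104 for Cyp4f6, 0.0531 to 0.13 for Dpep1 and 0.149 to 0.205 for Mgst2. Dpep1 also missed in the 16 libraries with Myl4 under 100 CPM (adjusted p = 0.119), and Mgst2 without control 5w replicate 2 or 3, any 1 HFpEF or EMPA library, or EMPA + PFD replicate 2 or 3 (adjusted p from 0.0514 to 0.0721) and with replicate number as a block (adjusted p = 0.082) or no filter (adjusted p = 0.0626). With only the groups compared the list count was 1, none of these 3: Cyp4f6 (adjusted p = 0.0515), Dpep1 (0.0829) and Mgst2 (0.176) were not called. Without untreated replicate 2 the list count was 7.

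The difference of the disease effects, week 9 minus week 5, called 13 of 60, 4 up and 9 down (median −0.34, against −0.02 over all genes). That is 21.7% of the list beside 12% of all genes. Dpep1 (−2.95, adjusted p = 0.00324) and Mgst2 (−2.51, adjusted p = 0.00343) had higher CPM in HFpEF than in control 5w and lower CPM in untreated than in control 9w, in 3 of 3 libraries each time. Ephx1 (−1.33, adjusted p = 0.00863) and Cyp4b1 (−2.10, adjusted p = 0.0109) differed the same way, and the prostaglandin F receptor Ptgfr the opposite way (4.22, adjusted p = 0.00772). For Cyp4b1 the week 5 groups overlapped, with HFpEF replicate 1 (62.3 CPM) under control 5w replicate 1 (72.2 CPM). Ptgfr had 766, 2865 and 3038 counts in control 5w, 584, 164 and 682 in HFpEF, 118, 82 and 239 in control 9w and 1077, 243 and 583 in untreated. Among these 4 groups its mean CPM was highest in control 5w and lowest in control 9w. Markers differed too: 4 of 5 erythroid (median −3.58), 3 of 4 platelet (median −2.77), 3 of 8 endothelial (median −1.01), 2 of 5 mesothelial, 1 of 6 Schwann, 1 of 2 eosinophil and 1 of 10 macrophage markers were called down. Of the cardiomyocyte markers 2 of 10 (median 1.62), of the atrial 1 of 6 and of the smooth muscle 1 of 7 were called up, and their part in the result was not tested. The count of 13 was 8 without untreated replicate 1 and 21 without untreated replicate 2.

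From HFpEF to untreated 0 of 60 were called by edgeR, with 11 at an unadjusted p under 0.05 and 4 by DESeq2 (median 0.02, against −0.01 over all genes); without untreated replicate 2 the count was 11, without HFpEF replicate 2 it was 3, without control 5w replicate 1 it was 1, and in the 16 libraries with Myl4 under 100 CPM it was 9. PFD against untreated called 0 of 60 by edgeR, with 4 at an unadjusted p under 0.05 and 0 by DESeq2 (median −0.03, against −0.02). EMPA + PFD against untreated called 8 of 60 (13.3%, beside 3.82% of all genes), 5 up and 3 down (median −0.13, against −0.03). Beside them 1 of 6 atrial markers rose and 2 fell, 1 of 8 endothelial and 1 of 2 eosinophil markers fell and 1 of 10 cardiomyocyte and 1 of 5 erythroid markers rose; their part in the result was not tested. The named ones were Dpep2 (log2 change −1.85, adjusted p = 0.0176) and Ggt5 (−1.21, adjusted p = 0.0281), which cleave leukotrienes and fell, and Plb1 (1.09, adjusted p = 0.0195), Dpep1 (1.44, adjusted p = 0.0276) and the prostaglandin reductase Ptgr2 (1.29, adjusted p = 0.0276), which rose. All 3 EMPA + PFD libraries lay outside the untreated range for each of them, as they did for 37.4% of all tested genes. These calls leaned on few libraries: the count was 0 without untreated replicate 2 or EMPA + PFD replicate 2, 2 without untreated replicate 3, 1 without EMPA + PFD replicate 3, and 0 in the 16 libraries with Myl4 under 100 CPM or with only the groups compared. Without untreated replicate 2 the 5 log2 changes were −1.73, −0.86, 0.82, 1.22 and 0.95, in the order named. Without EMPA + PFD replicate 2 none of the 5 was called (adjusted p from 0.0588 to 0.111). Dpep2 (adjusted p = 0.0531), Dpep1 (0.079) and Ptgr2 (0.0568) were not called without untreated replicate 3. Dpep2 (0.0677), Dpep1 (0.0961), Ptgr2 (0.0698) and Ggt5 (0.0972) were not called without EMPA + PFD replicate 3, and Plb1 (log2 change 0.93) and Ggt5 (adjusted p = 0.0666) were not called without replicate 1.

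Type 2 cytokines are known to induce Alox15, and 30 genes of that axis were listed, 27 of them in the files and 20 tested. The cytokines themselves were hardly read: Il4, Il5 and Il13 reached at most 2, 1 and 6 counts in any library. In control 9w against control 5w, where Alox15 fell, 3 of 20 rose and 2 fell. That is 25% of the list beside 14.7% of all genes. The transcription factor gene Klf4 (log2 change 1.58, adjusted p = 0.000146), the receptor gene Il4r (1.36, adjusted p = 0.000214) and the alarmin gene Il33 (1.68, adjusted p = 0.00762) rose. The chemokine gene Ccl22 (−2.32, adjusted p = 0.00672) and the matrix gene Postn (−5.17, adjusted p = 0.0112) fell. Postn overlapped between the groups, with 484 counts in control 5w replicate 1 beside 52571 and 44331, and lost its call without control 9w replicate 2 (adjusted p = 0.0537). In the 16 libraries with Myl4 under 100 CPM, Il33 (0.76, adjusted p = 0.218) and Postn (−6.17, adjusted p = 0.0868) missed the threshold. Of the 20 genes 14 were lower in control 9w, with a median log2 difference of −0.23 against −0.04 over all genes, so the axis held called genes in both directions.

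In HFpEF against control 5w 2 of the 20 type 2 genes rose, Klf4 (log2 change 1.40, adjusted p = 0.000742) and Il33 (1.36, adjusted p = 0.0337), each higher in 3 of 3 libraries; that is 10% of the list beside 8.69% of all genes. Il33 lost that call without control 5w replicate 1 (adjusted p = 0.11), replicate 2 (0.0656) or replicate 3 (0.064), without HFpEF replicate 2 (0.133), with replicate number as a block (0.0513) and with only the groups compared (0.0544). In untreated against control 9w 1 rose, Ccl22 (2.83, adjusted p = 0.0247), with 14, 27 and 12 counts against 3, 1 and 2. That call was lost without any 1 of control 9w replicates 1, 2 and 3 and untreated replicates 1 and 3 (adjusted p from 0.0508 to 0.117), in the 16 libraries with Myl4 under 100 CPM (0.117) and with only the groups compared (0.0561). The difference of disease effects called 3 of 20 (15%, beside 12% of all genes), all down: Klf4 (−1.65, adjusted p = 0.00223), Il4r (−1.22, adjusted p = 0.00638) and Il33 (−1.73, adjusted p = 0.0491). Il4r lost its call with HFpEF replicate 2 as the HFpEF library (−0.87, adjusted p = 0.0519). Il33 lost its call without any 1 library other than HFpEF replicate 1, control 9w replicate 2 and untreated replicate 2 (adjusted p from 0.05 to 0.121). Untreated against HFpEF called 0 of 20 by edgeR, with 3 at an unadjusted p under 0.05 and 1 by DESeq2. PFD against untreated called 0, with 0 at an unadjusted p under 0.05 and 0 by DESeq2, and EMPA + PFD against untreated called 0 by edgeR, with 8 at an unadjusted p under 0.05 and 1 by DESeq2.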

How the data were processed

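Total RNA of rat hearts was sequenced in 19 libraries of 7 groups. The deposited files hold counts per gene, which the authors made, per their processing notes, with Trim Galore, FastQC, HISAT2 on rn6 and HTSeq; the notes also name DESeq2, and the strand setting and annotation are not given in the sources used here. The table of the whole series was not used separately. Members and lists were chosen with earlier results of these data known. Counts were tested in R 4.3.3 with edgeR 4.0.16 and limma 3.58.1: filterByExpr, trimmed-mean scaling, 1 model of 7 groups and the edgeR quasi-likelihood F test with Benjamini-Hochberg adjustment over all tested genes (coefficient of variation 0.257). Calls needed an adjusted p under 0.05 with a log2 fold change of 1 or more in size. The standard error was the absolute log2 fold change divided by the root of F. Log2 CPM used a prior count of 2. All members were named, as were the called genes of the pathway list, or the 5 with the smallest adjusted p; the type 2 cytokine list was named the same way, chosen after its values were seen, and each member's 3 most correlated genes were named, except 1 that is not reported here; lists of cell type markers were counted. Alternatives were relative log expression, no filter, DESeq2 1.42.0, only the groups compared, adjusted p alone, a replicate block, subsets of libraries and leaving out each library. The code was tested on simulated data.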

Additional observations from a re-analysis of the deposited data

Results flagged for a closer look

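The effect of disease differed between week 9 (untreated against control 9w) and week 5 (HFpEF against control 5w) by an interaction test for 8 named genes. The log2 difference of the effects was −2.95 for Dpep1, −2.51 for Mgst2, −1.33 for Ephx1, −2.10 for Cyp4b1 and 4.22 for Ptgfr among the eicosanoid genes. It was −1.65 for Klf4, −1.22 for Il4r and −1.73 for Il33 among the type 2 genes. The call of Il33 was lost under 20 of 27 alternatives and that of Il4r under 1, while the 6 others held under all. These 8 values share the same 12 libraries. In them the weeks differ in RT1-CE16, and the untreated libraries and 2 of 3 HFpEF libraries lack counts of Eif2s3y, so time, gavage and these properties of the libraries cannot be told apart. Dixon's test for an outlying sample, which needs at least 4 per group, was not run. Marker lists of other cells were called in this test too, some down (4 of 5 erythroid, 3 of 4 platelet, 3 of 8 endothelial, 2 of 5 mesothelial, 1 of 6 Schwann, 1 of 2 eosinophil and 1 of 10 macrophage markers) and some up (2 of 10 cardiomyocyte, 1 of 6 atrial and 1 of 7 smooth muscle markers). The 3 type 2 genes were 15% of their list beside 12% of all genes. Of the eicosanoid list 13 of 60 were called, 21.7%, with the 5 named here among them.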

How the results depend on the processing

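With HFpEF replicate 2 as the only HFpEF library, the log2 differences of Alox5ap (0.12) and Tbxas1 (0.10) between untreated and HFpEF changed sign. The number of the 9 genes called stayed 0 under every alternative in HFpEF against control 5w and in PFD against untreated. In untreated against control 9w it was 1 by DESeq2 and 0 to 2 on leaving out 1 library (2 without untreated replicate 2). In control 9w against control 5w it was 3 by DESeq2, 0 in the 16 libraries with Myl4 under 100 CPM, an alternative chosen after seeing the data, and 1 to 3 on leaving out 1 library (3 without control 5w replicate 1 or untreated replicate 2). In untreated against HFpEF it was 1 with no filter, 2 by DESeq2, 2 in the 16 libraries and 0 to 5 on leaving out 1 (5 without untreated replicate 2), counts that include Alox15, for which they are no test. In EMPA + PFD against untreated it was 1 by DESeq2 and 0 to 1 on leaving out 1. For the difference of disease effects it was 1 by DESeq2, 1 in the 16 libraries and 0 to 2 on leaving out 1 (2 without untreated replicate 2). The cause was not tested. Of the tests of named genes under alternatives 1277 kept direction and call, though values could move, 117 lost a call and 28 gained 1; these include Alox15 against untreated, which is no test. Of 63 log2 differences of the 9 genes 33 kept their sign throughout; the 30 that changed sign under some alternative were not called. Same-number libraries share only a number (19 pairs, r from −0.532 to 0.351, 4 over 0.1; 3 of 19 best with their own), and the replicate block left the calls among the 9 genes unchanged in the tested comparisons. A group left with 1 library is assumed to vary like the others. Ptges, at 0 to 12 counts, did not pass the filter.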
